A study of Homo sapiens with 24 samples.

Results

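The sialyl- and fucosyltransferase genes described here are 10 genes, chosen by symbol, among the 26475 gene symbols counted in each library. They comprise 5 sialyltransferases (ST6GAL1, ST3GAL1, ST3GAL2, ST3GAL4 and ST3GAL6) and 5 fucosyltransferases (FUT1, FUT4, FUT6, FUT8 and FUT11), and all 10 symbols were found. RNA-seq was performed on HepG2 cells, a human hepatocellular carcinoma line, in 24 libraries that fall into 8 groups of 3. The cells received the solvent DMSO, 50 nM of ABBV-075, or ABBV-744 at either 50 or 500 nM, each without or with interferon gamma (IFNg), and the group with IFNg and no inhibitor is called IFNg below. ABBV-075 is a pan-BET inhibitor, and ABBV-744 is a BET inhibitor selective for the second bromodomain. BET proteins bind acetylated histones at enhancers and promoters, and the comparisons ask how their inhibition, with or without IFNg, changes gene expression. The methods give 12 h for ABBV-075 and, as worded, 24 h for a DMSO group, without saying whether those are the DMSO libraries used here. The times of ABBV-744 and IFNg and the dose of IFNg are not given in the sources used here, so that inhibitor and duration cannot be told apart. All libraries came from 1 cell line. The methods describe the samples of DMSO and ABBV-075 as independent and as experimental triplicates, without saying whether each was a separate culture, and the sources used here do not say this of the other groups, so that p-values measure the spread between these libraries, which may be technical.

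Sialyltransferases and fucosyltransferases work mainly in the Golgi, where they move sialic acid from CMP-sialic acid, or fucose from GDP-fucose, onto growing glycans. ST6GAL1 caps the N-glycans of secreted liver glycoproteins, whereas the ST3GAL enzymes attach sialic acid to galactose through another linkage on glycoproteins and glycolipids. FUT6 adds fucose to the outer arms of plasma glycoproteins, FUT8 fucosylates the N-glycan core, and core-fucosylated alpha-fetoprotein is a marker of liver cancer.

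ST6GAL1 and FUT6 were the members with the largest differences under ABBV-075, and their RefSeq promoters (GRCh38.p14) are shown for that reason, from 250 bases before the annotated start to 30 bases after it. The counts are per gene and do not show which start these cells used, so that the windows are those of annotated starts only. The ST6GAL1 window lies on the plus strand at chr3:186930276-186930555, and the FUT6 window on the minus strand at chr19:5839673-5839952. Capitals mark GC boxes (GGGCGG on either strand) in ST6GAL1 and a GAS element (TTCNNNGAA), a motif found at genes that IFNg activates, in FUT6.
ST6GAL1: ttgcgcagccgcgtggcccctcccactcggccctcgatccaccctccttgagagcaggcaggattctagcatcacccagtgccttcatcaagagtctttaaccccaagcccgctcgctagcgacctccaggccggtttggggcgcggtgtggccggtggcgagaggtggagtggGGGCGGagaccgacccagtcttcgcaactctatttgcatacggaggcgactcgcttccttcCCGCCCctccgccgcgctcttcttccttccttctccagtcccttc
FUT6: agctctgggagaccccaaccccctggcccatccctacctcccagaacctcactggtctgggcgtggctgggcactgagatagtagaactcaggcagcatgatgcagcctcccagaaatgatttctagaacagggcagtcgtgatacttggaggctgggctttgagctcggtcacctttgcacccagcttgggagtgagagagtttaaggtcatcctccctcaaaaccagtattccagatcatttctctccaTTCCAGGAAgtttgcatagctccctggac
The 2 GC boxes of ST6GAL1 begin at positions -76 and -15, and the GAS element of FUT6 begins at position 2 of the transcript. A GC box is in 45% and a GAS element in 7.66% of 35116 RefSeq promoters of 300 bases. A TATA box, searched as TATAAA on both strands, is in 11.5% of those promoters and was in neither window. Promoter entries were matched for 7 of the 10 members. The FUT6 primers that the study used for qRT-PCR are shown because FUT6 has the near-identical neighbours FUT3 and FUT5.
FUT6 forward: ccgactacatcaccgagaagct
FUT6 reverse: gaacctctcgtagttgcttctgc
Both primers matched the annotated transcripts of FUT6, FUT3 and FUT5 with 0 mismatches. The counts exclude reads with more than 1 alignment. In them FUT6 held 757 reads over the 24 libraries, FUT3 18 and FUT5 5. Of the 3277 windows of 50 bases in the longest FUT6 transcript, 367 (11.2%) are also in FUT3 or FUT5. For windows of 100 bases it is 252 of 3227 (7.81%). Reads that lie wholly within such stretches would have more than 1 alignment and be missing from the FUT6 count.

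Gene counts summed to between 2978982 and 4304103 reads per library (median 3462418.5), and 98.3% to 98.5% of them lay on the strand of the gene. The hepatocyte markers ALB, AFP, APOA1, TTR, SERPINA1 and HNF4A were detected in every library, with 5980 to 14452 counts for ALB. PTPRC, CD3E, ITGAM and COL3A1 were at 0, and CD68 had 25 to 86 counts. Target genes of the treatments were used to check the labels. HEXIM1, a gene induced by BET inhibitors, rose by 1.41 ± 0.12 (SE) on the log2 scale with ABBV-075 (adjusted p = 6.81e-06) and MYC fell by 0.73 ± 0.13 (adjusted p = 0.000894). Neither of these genes was past the threshold with ABBV-744 at 50 nM, while at 500 nM both were, 1 higher and 1 lower. IRF1, a direct target of IFNg signalling, rose by 4.26 ± 0.12 with IFNg (adjusted p = 4.53e-27) and GBP1 by 4.89. Fold changes are from edgeR (quasi-likelihood F-test), and p-values were adjusted by Benjamini-Hochberg over all genes tested. An adjusted p of at most 0.05 counts as past the threshold, or called. Levels are CPM, read counts scaled to library size with TMM factors.

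In DMSO, ST6GAL1 was the most abundant of the 10 genes per length of merged exons, at 35.5 ± 0.56 CPM per kb (SD, n = 3). The ST3GAL2 level per kb came next at 7.79 ± 0.20, followed by ST3GAL1 at 4.51 ± 0.27, FUT6 at 4.03 ± 0.21, FUT11 at 3.67 ± 0.31 and ST3GAL6 at 3.31 ± 0.51. The lowest levels per kb were those of FUT8 at 2.33 ± 0.35, ST3GAL4 at 2.14 ± 0.26 and FUT4 at 0.37 ± 0.17. The order below ST6GAL1 depends on the length used. The merged exons of ST3GAL4, for example, span 5962 bases and its longest transcript 2169, against 6976 and 5166 for FUT8. FUT4, which makes the Lewis x epitope of leukocytes, had 3 to 14 counts per library. FUT1, which builds the H antigen, had 0 to 2 counts per library and 7 in total, so that every group was at or under the floor of 3 counts and no change was measured. Of the 10 members, 8 passed the filter on low counts in every comparison, FUT4 passed it in some, and FUT1 in none. In RNA from whole cultures, fewer cells that express a gene and less RNA per cell cannot be told apart.

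**Figure D1:**
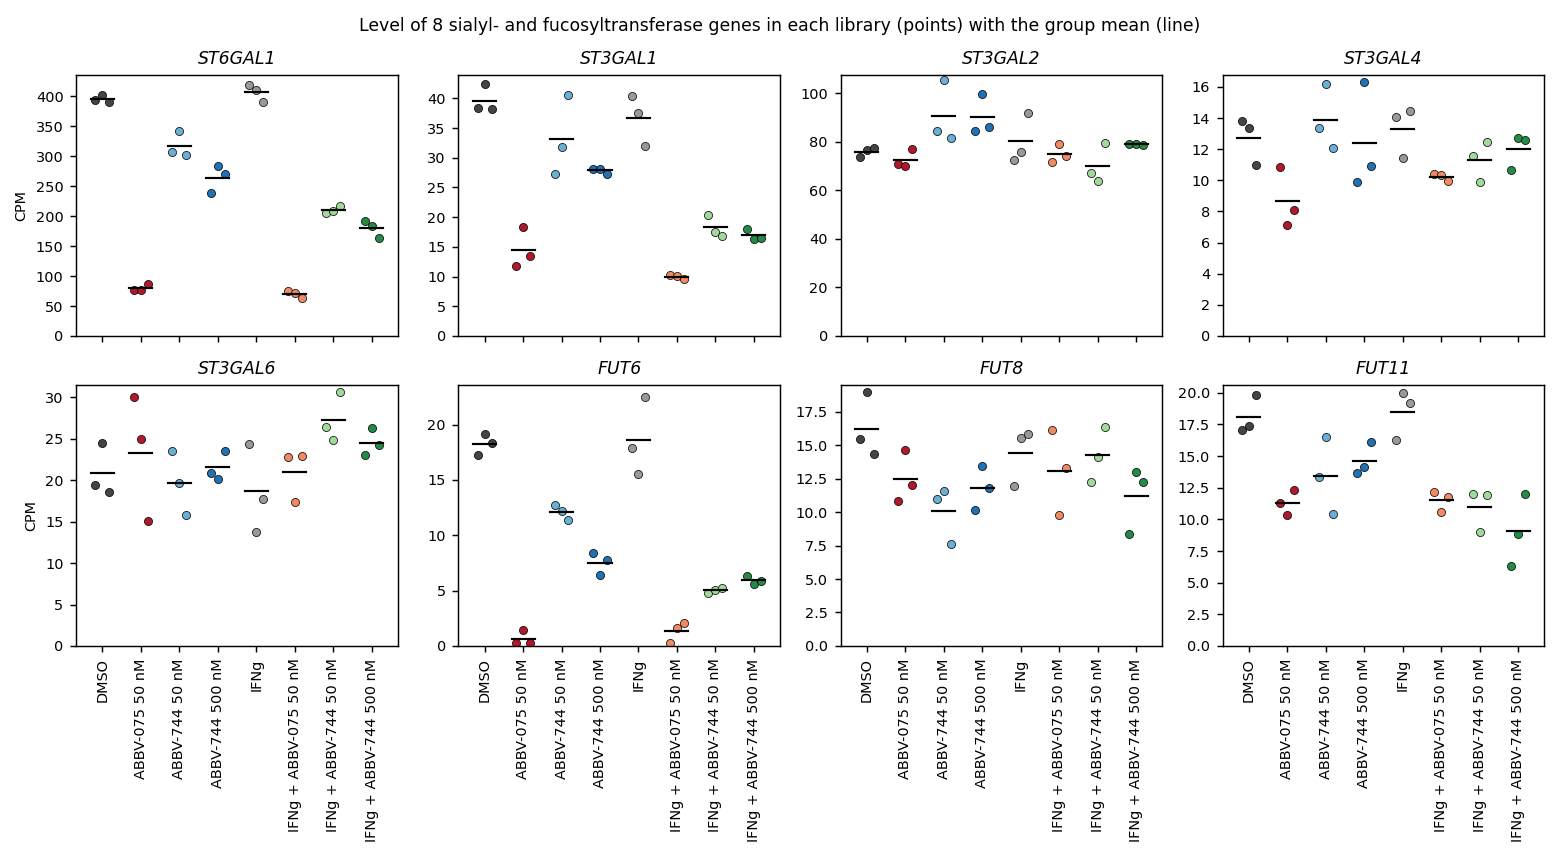
CPM (y axis, from 0) of 8 members in each of the 24 libraries, by treatment group (x axis), with a line at the mean of the 3 libraries. ST6GAL1 lies between 391 and 403 CPM in DMSO and between 75.9 and 86.0 in ABBV-075, and FUT6 at 17.3 to 19.2 against 0.24 to 1.43, whereas the ST3GAL2 and ST3GAL6 points of the same groups overlap.

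ABBV-075 lowered 4 of the 8 members tested, the sialyltransferases ST6GAL1 and ST3GAL1 and the fucosyltransferases FUT6 and FUT11, and none rose. Over all 11244 genes tested, 39.3% were past the threshold and 19.6% were lower. The median log2 fold change was -0.63 for the 8 members and 0.03 for all genes. ST6GAL1 (chr3:186930325-187078553, plus strand, GRCh38) had 393, 403 and 391 CPM in the 3 DMSO libraries and 76.8, 75.9 and 86.0 in the 3 ABBV-075 libraries, from 1478 to 1805 reads against 265 to 319. The groups were far apart, and the log2 fold change was -2.33 ± 0.11 (SE; adjusted p = 1.25e-07). ST3GAL1, which sialylates O-glycans, had 38.3, 42.4 and 38.2 CPM in DMSO and 11.8, 18.3 and 13.5 with ABBV-075. It fell by 1.47 ± 0.18 on the log2 scale (adjusted p = 9.32e-05), and its groups did not overlap either. The other ST3GAL genes were not called. The value of ST3GAL2, which acts on O-glycans and gangliosides, was -0.09 (95% CI -0.35 to 0.18, adjusted p = 0.601). ST3GAL4, an enzyme of N-glycans and selectin ligands, had -0.55 (95% CI -1.04 to -0.07, adjusted p = 0.0673), with groups that did not overlap, and was called without ABBV-075 replicate 1 (-0.75, adjusted p = 0.0283). In ST3GAL6 the 3 ABBV-075 libraries ranged from 15.0 to 30.1 CPM and surrounded the DMSO libraries at 18.6 to 24.5, with a log2 fold change of 0.15 (95% CI -0.35 to 0.64, adjusted p = 0.629).

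FUT6 (chr19:5830408-5839722, minus strand, GRCh38) showed the largest difference of the 10 genes. Its reads numbered 65, 86 and 77 in DMSO and 1, 5 and 1 with ABBV-075. The summed reads gave a level of 3.48% of DMSO, with an exact 95% interval of 1.38% to 7.28% that covers counting error only. FUT6 fell by 4.79 ± 0.38 on the log2 scale (adjusted p = 3.65e-06). The size of this value rests on few reads, and without ABBV-075 replicate 2, the library with 5 reads, it was -5.96. FUT11, a fucosyltransferase of the endoplasmic reticulum at chr10:73772276-73780251, had 17.0, 17.4 and 19.8 CPM in DMSO and 11.3, 10.3 and 12.3 with ABBV-075. It fell by 0.70 ± 0.19 (adjusted p = 0.0108), and missed the threshold without DMSO replicate 3 (-0.63, adjusted p = 0.0545) or ABBV-075 replicate 2 (-0.63, adjusted p = 0.0501). FUT8, the core fucosyltransferase, had 14.3 to 19.0 CPM in DMSO and 10.8 to 14.6 with ABBV-075, and the groups overlapped. Its log2 fold change of -0.41 (95% CI -0.84 to 0.03, adjusted p = 0.124) became -0.65 (adjusted p = 0.0142) after a correction for the GC content of genes, which is 40.8% in the longest FUT8 transcript. The GC skew of a library, the mean log2 deviation of the GC-richest 25% of genes minus that of the GC-poorest 25%, was 0.08 to 0.31 in DMSO and -0.73 to 0.19 in ABBV-075.

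**Figure D2:**
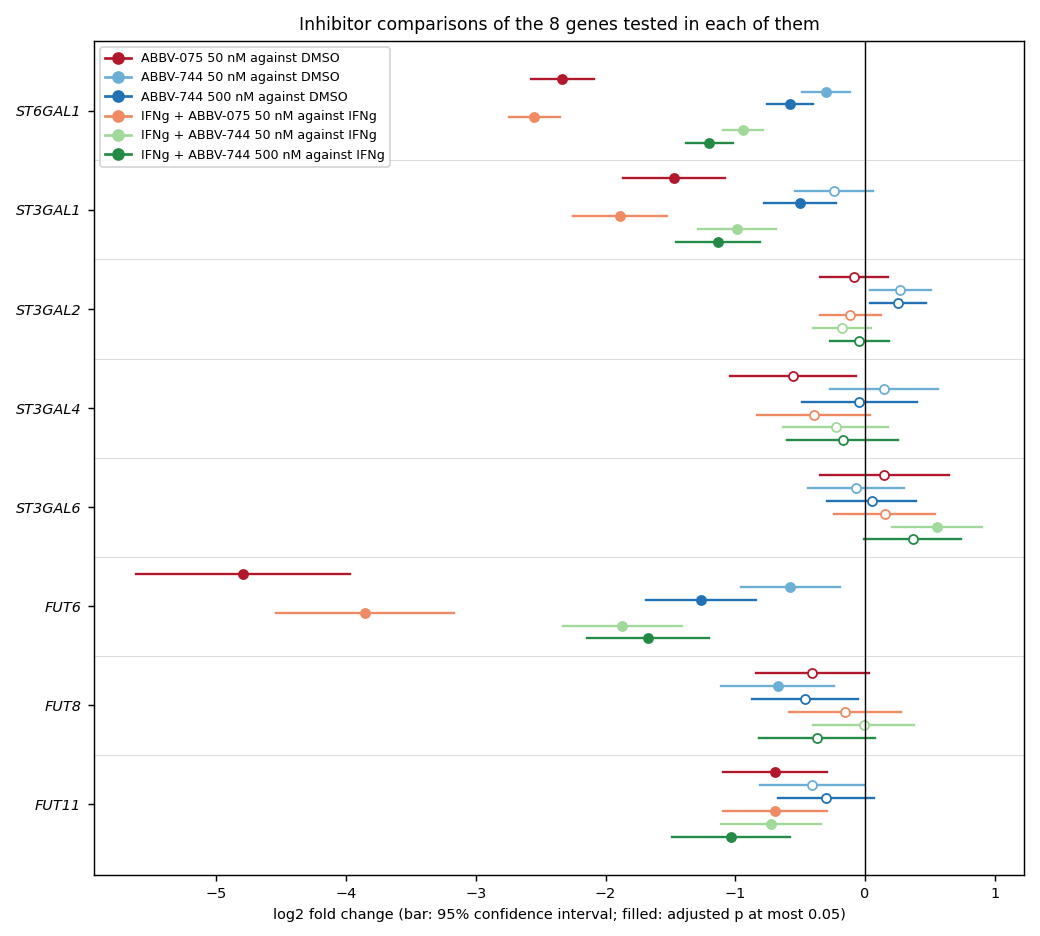
Log2 fold change (x axis) of 8 members (rows) in the 6 comparisons of an inhibitor with its control, coloured by comparison, with 95% confidence intervals as bars and filled points at an adjusted p of at most 0.05. FUT6 reaches -4.79 with ABBV-075, ST6GAL1 and ST3GAL1 lie below 0 in each comparison, and the points of ST3GAL2 and ST3GAL4 are all open.

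ABBV-744 alone lowered ST6GAL1 and FUT6 at both doses, FUT8 at 50 nM and ST3GAL1 at 500 nM. At 50 nM, 3 of 8 members were lower, against 18.9% of all genes past the threshold and 10.1% lower. ST6GAL1 had 308, 342 and 301 CPM, below every DMSO library, and fell by 0.30 ± 0.09 on the log2 scale (adjusted p = 0.0231). FUT6 had 12.8, 12.2 and 11.4 CPM against 17.3 to 19.2 in DMSO and fell by 0.58 ± 0.19 (adjusted p = 0.0307). FUT8 had 11.0, 11.5 and 7.61 CPM and fell by 0.67 ± 0.21 (adjusted p = 0.0274). These 3 calls were close to the threshold. None was called without DMSO replicate 2 (adjusted p = 0.118 for ST6GAL1, 0.122 for FUT6 and 0.165 for FUT8) or without ABBV-744 50 nM replicate 3 (0.0845, 0.0897 and 0.133), and without DMSO replicate 3 ST6GAL1 and FUT6 were lost (0.086 and 0.0949). ST6GAL1 was also lost without DMSO replicate 1 (-0.30, adjusted p = 0.0552). After the GC correction FUT8 had -0.44 (adjusted p = 0.184), whereas ST6GAL1 (-0.33, adjusted p = 0.00227) and FUT6 (-0.79, adjusted p = 0.00359) were called. ST3GAL2 lay at 81.5 to 106 CPM, above the 73.7 to 77.3 of DMSO (0.27, adjusted p = 0.0966), and was called only without ABBV-744 50 nM replicate 1 (0.33, adjusted p = 0.0464). FUT11 was called only without ABBV-744 50 nM replicate 2 (-0.58, adjusted p = 0.0465).

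At 500 nM of ABBV-744, 3 of 9 members were lower, against 15.3% of genes past the threshold and 7.8% lower. ST6GAL1 had 239, 283 and 270 CPM and fell by 0.58 ± 0.09 on the log2 scale (adjusted p = 2.96e-05). FUT6 had 8.42, 6.41 and 7.76 CPM and fell by 1.27 ± 0.21 (adjusted p = 7.54e-05). ST3GAL1, at 27.3 to 28.2 CPM, fell by 0.50 ± 0.14 (adjusted p = 0.0119), a call lost without DMSO replicate 2 (-0.45, adjusted p = 0.0858) or ABBV-744 500 nM replicate 3 (-0.49, adjusted p = 0.0562). In the direct comparison of both doses, none of 8 members was past edgeR's threshold, 2 had an unadjusted p under 0.05 and DESeq2 called 0, while 0.0274% of all genes were past it. The dose difference of FUT6 was -0.69 (95% CI -1.19 to -0.19), and that of ST6GAL1 was -0.28 (95% CI -0.50 to -0.05, adjusted p = 0.775).

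IFNg alone left these genes at values whose differences were small against their errors. None of the 9 members tested was past edgeR's threshold, 0 had an unadjusted p under 0.05 and DESeq2 called 0, against 3.46% of all genes. ST6GAL1 had 418, 411 and 391 CPM with IFNg, overlapping DMSO, and a log2 fold change of 0.05 (95% CI -0.09 to 0.18). FUT6, with the GAS element printed above, had 17.9, 15.6 and 22.5 CPM and a log2 fold change of 0.03 (95% CI -0.31 to 0.38, adjusted p = 0.958). The widest interval was that of FUT4, at 0.46 (95% CI -0.38 to 1.31) from 4 to 14 reads per library.

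In the presence of IFNg, ABBV-075 lowered, as counted, the same 4 genes that it lowered alone: ST6GAL1, ST3GAL1, FUT6 and FUT11. Of all genes, 56.6% were past the threshold and 28.4% were lower. ST6GAL1 fell to 75.3, 71.0 and 63.9 CPM, by 2.55 ± 0.10 on the log2 scale (adjusted p = 2.74e-22). ST3GAL1 lay at 9.64 to 10.2 CPM and fell by 1.89 ± 0.18 (adjusted p = 1.87e-11). FUT6 had 1, 6 and 7 reads against 66, 53 and 81 with IFNg alone, which is 6.79% of its IFNg level (exact 95% interval 3.65% to 11.7%), with a log2 fold change of -3.85 ± 0.34 (adjusted p = 3.47e-12). FUT11 fell by 0.69 ± 0.20 (adjusted p = 0.00311), or by 0.42 (adjusted p = 0.0513) after the GC correction. FUT8 had -0.15 (adjusted p = 0.567) as counted and was called after that correction (-0.48, adjusted p = 0.0367). Whether IFNg altered the response to ABBV-075 was tested as an interaction, which was past edgeR's threshold for none of 9 members, 0 had an unadjusted p under 0.05 and DESeq2 called 0, with 0.0347% of all genes past it. For ST6GAL1 that difference was -0.23 (95% CI -0.52 to 0.05), and for FUT6 it was 0.92 (95% CI -0.63 to 2.47), or 2.08 without ABBV-075 replicate 2. These comparisons share the DMSO or the IFNg libraries and are not independent of each other.

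ABBV-744 with IFNg at 50 nM lowered 4 of 8 members and raised 1, against 51.7% of all genes past the threshold, 24.3% lower and 27.4% higher. ST6GAL1 had 205, 209 and 217 CPM, below every IFNg library, and fell by 0.94 ± 0.08 (adjusted p = 6.35e-12). ST3GAL1 at 16.9 to 20.4 CPM fell by 0.99 ± 0.15 (adjusted p = 1.28e-06). FUT6 at 4.81 to 5.26 CPM fell by 1.87 ± 0.22 (adjusted p = 1.87e-08), and FUT11 by 0.73 ± 0.19 (adjusted p = 0.00167). ST3GAL2 was called only without IFNg + ABBV-744 50 nM replicate 3 (-0.29, adjusted p = 0.0483). ST3GAL6, which builds selectin ligands and other glycans, was the member that rose. It had 24.8 to 30.7 CPM against 13.8 to 24.4 with IFNg and rose by 0.55 ± 0.17 (adjusted p = 0.00714), but its value was 0.25 (adjusted p = 0.244) after the GC correction and 0.39 (adjusted p = 0.0753) without IFNg replicate 2. FUT8 had -0.01 (adjusted p = 0.965) as counted and -0.50 (adjusted p = 0.0429) after the GC correction. At 500 nM with IFNg, 4 of 8 members were lower, against 45.7% of genes past the threshold and 22.8% lower. The log2 fold changes were -1.20 for ST6GAL1, -1.14 for ST3GAL1, -1.67 for FUT6 and -1.03 for FUT11, the last with an adjusted p of 0.000297. ST3GAL2 had -0.04 (adjusted p = 0.778) as counted and 0.25 (adjusted p = 0.0292) after the GC correction, and FUT8 had -0.37 (adjusted p = 0.169) and -0.73 (adjusted p = 0.00941). ST3GAL6 was called only without IFNg replicate 1 (0.62, adjusted p = 0.0104).

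The effects of ABBV-744 with IFNg differed, as counted, from those without it for some members. At 50 nM the difference between the effects was past the threshold for 4 of 9 members, against 51.6% of all genes and 26.5% lower, and the median of all genes was -0.14 (0.04 with library size only). It was -0.67 ± 0.11 for ST6GAL1 (adjusted p = 1.08e-05), -0.77 ± 0.21 for ST3GAL1 (adjusted p = 0.00303), -0.48 ± 0.16 for ST3GAL2 (adjusted p = 0.0154) and -1.32 ± 0.28 for FUT6 (adjusted p = 0.000308). The effects compared for ST3GAL2 were 0.27 without IFNg and -0.18 with it, neither of them called. The GC content of genes moved with these groups. The GC skew was 0.51 to 1.06 in ABBV-744 50 nM, -0.71 to -0.65 in IFNg with ABBV-744 50 nM, 0.08 to 0.31 in DMSO and 0.16 to 0.56 in IFNg. With the GC correction 2336 of the 11451 genes tested were called. After that correction ST6GAL1 was still called, at -0.49 (adjusted p = 0.000161), while FUT6 had -0.75 (adjusted p = 0.0525), ST3GAL1 -0.36 (adjusted p = 0.22) and ST3GAL2 0.06 (adjusted p = 0.831). The ST3GAL2 call was also lost without ABBV-744 50 nM replicate 2 (-0.35), IFNg replicate 3 (-0.37) or IFNg + ABBV-744 50 nM replicate 2 (-0.40). ST3GAL6, at 0.59 (adjusted p = 0.056), was past the threshold without DMSO replicate 3 (0.67), ABBV-744 50 nM replicate 1 (0.74), IFNg replicate 1 (0.84) or IFNg + ABBV-744 50 nM replicate 2 (0.67). FUT8, at 0.63 (adjusted p = 0.0609), was called without ABBV-744 50 nM replicate 2 (0.74) or IFNg + ABBV-744 50 nM replicate 1 (0.75), and was -0.06 after the GC correction.

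At 500 nM the difference between the effects was past the threshold for 3 of 9 members, against 33.5% of all genes and 15% lower. It was -0.60 ± 0.12 for ST6GAL1 (adjusted p = 0.000214), -0.61 ± 0.20 for ST3GAL1 (adjusted p = 0.0178) and -0.71 ± 0.28 for FUT11 (adjusted p = 0.0483). For FUT6 it was -0.39 (95% CI -1.02 to 0.25). The GC skew was 0.25 to 0.84 in ABBV-744 500 nM and -0.61 to -0.24 in IFNg with ABBV-744 500 nM. With the GC correction 1915 of the 11428 genes tested were called. ST6GAL1 kept its call after that correction (-0.42, adjusted p = 0.00145), whereas ST3GAL1 (-0.28, adjusted p = 0.36) and FUT11 (-0.39, adjusted p = 0.371) did not. ST3GAL1 was also lost without DMSO replicate 3 (-0.56, adjusted p = 0.0547) or with DESeq2 (-0.60, adjusted p = 0.0571). The FUT11 call was lost with DESeq2 (-0.70, adjusted p = 0.117) and with library size only (-0.63, adjusted p = 0.0924). It was lost as well with RLE scaling (adjusted p = 0.0534), other filters on low counts (0.06 and 0.0632) or both strands together (0.0564). FUT11 was past the threshold in only 2 of 12 fits that left out 1 library, those without IFNg replicate 1 and without IFNg + ABBV-744 500 nM replicate 3, with values of -0.96 to -0.53 over the 12 fits.

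**Figure D3:**
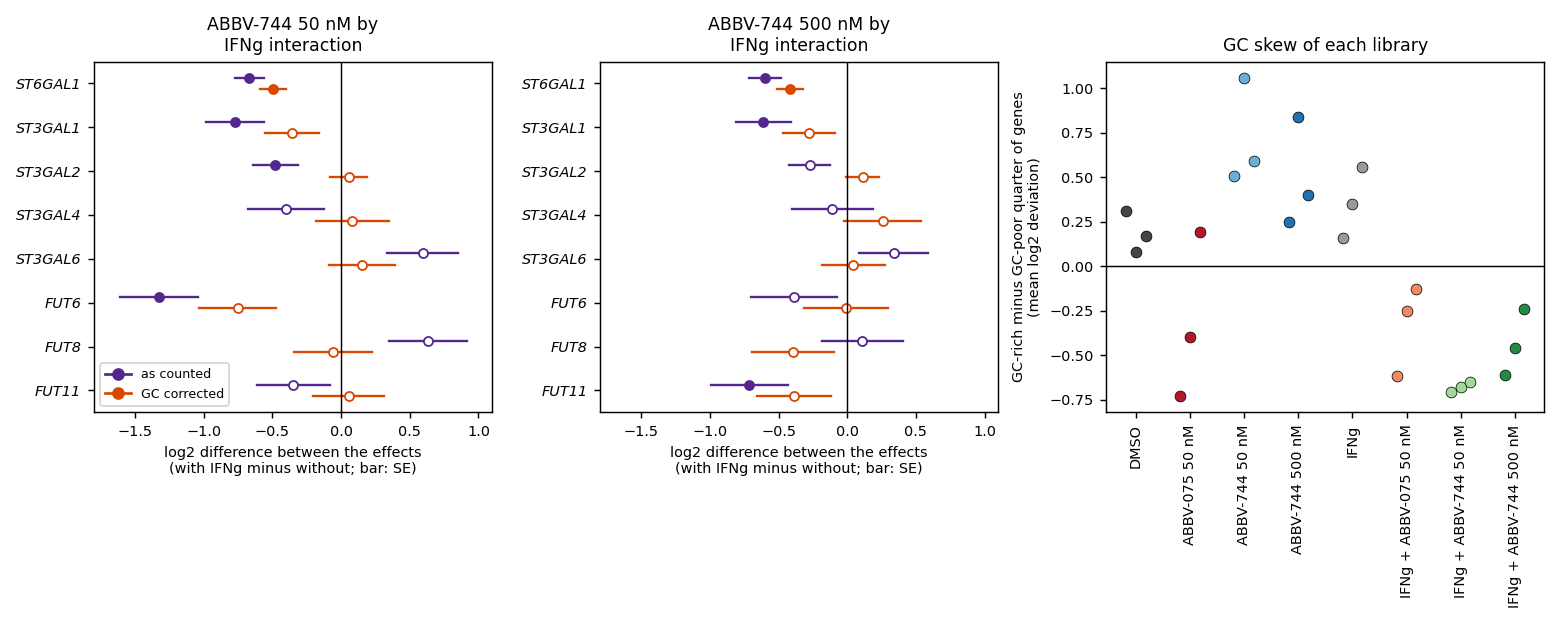
Left and centre, the difference between the ABBV-744 effect with IFNg and without it (x axis, log2 scale, bars are SE) for 8 members (rows), as counted and after the GC correction, with filled points at an adjusted p of at most 0.05. Right, the GC skew (y axis, log2 scale) of each library by group, which is above 0 in ABBV-744 without IFNg and below 0 with it; ST6GAL1 is the member that stays filled after the correction at both doses.

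ABBV-075 and ABBV-744 were compared directly at the matched dose of 50 nM, with the caveat that the duration of ABBV-744 is not given. Without IFNg, 4 of 8 members were lower with ABBV-075, against 40.8% of all genes past the threshold and 19.4% lower. ST6GAL1 had a log2 difference of -2.01 (95% CI -2.27 to -1.74, adjusted p = 1.46e-05), ST3GAL1 of -1.21 (95% CI -1.70 to -0.72, adjusted p = 0.00297) and FUT6 of -4.18 (95% CI -5.12 to -3.24, adjusted p = 0.00024). Without ABBV-075 replicate 2 the FUT6 difference was -5.32. ST3GAL4 was -0.67 (adjusted p = 0.0422), a call that was lost in 5 of the 6 fits that left out 1 library, all but that without ABBV-075 replicate 1, and after the GC correction (-0.35, adjusted p = 0.262). The members without a call had intervals that still allow sizeable differences, such as -0.76 to 0.23 for FUT11 and -0.22 to 0.81 for FUT8. With IFNg, 3 of 8 members were lower with ABBV-075, against 33.7% of all genes past the threshold and 17% lower. The log2 differences were -1.54 for ST6GAL1 (95% CI -1.72 to -1.35), -0.83 for ST3GAL1 (adjusted p = 0.000724) and -1.91 for FUT6 (adjusted p = 0.000544, and -1.35 without IFNg + ABBV-075 50 nM replicate 1, the library with 1 read).

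Across the 8 groups the order of the levels was similar for ST6GAL1 and FUT6 at both ends. For ST6GAL1 it ran from IFNg (407 ± 14.4 CPM, SD, n = 3) and DMSO (395 ± 6.27), which overlapped, through ABBV-744 50 nM (317 ± 22.2) and 500 nM (264 ± 22.7) and IFNg with ABBV-744 50 nM (210 ± 6.23) and 500 nM (180 ± 14.6) to ABBV-075 (79.6 ± 5.59) and IFNg with ABBV-075 (70.0 ± 5.75). From DMSO down, no neighbours in that order overlapped. FUT6 ran from IFNg (18.6 ± 3.54) and DMSO (18.3 ± 0.95) through ABBV-744 50 nM (12.1 ± 0.68), ABBV-744 500 nM (7.53 ± 1.02), IFNg with ABBV-744 500 nM (5.93 ± 0.38) and IFNg with ABBV-744 50 nM (5.05 ± 0.23) to both ABBV-075 groups, at 1.33 ± 0.97 with IFNg and 0.66 ± 0.67 without it. Here the neighbours overlapped at either end alone. For ST3GAL4 each group overlapped its neighbour in the order, over means of 8.70 to 13.9 CPM, and the same was true of ST3GAL6 over means of 18.7 to 27.3 CPM.

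The sum of the 5 sialyltransferase levels per kb was 53.2 ± 1.51 CPM per kb in DMSO and 21.4 ± 0.62 with ABBV-075. ST6GAL1 made up 66.7% ± 0.83 (SD, n = 3) of that sum in DMSO and 33.4% ± 3.09 with ABBV-075. With ABBV-744 the ST6GAL1 share was 60.6% ± 0.34 at 50 nM and 56.9% ± 1.04 at 500 nM. IFNg had a share of 67.5% ± 1.91, overlapping DMSO, and IFNg with ABBV-075 one of 31.1% ± 1.88. IFNg with ABBV-744 lay between them, at 54.9% ± 1.85 for 50 nM and 50.3% ± 2.23 for 500 nM. With ABBV-075, ST3GAL2 and ST6GAL1 had 7.45 ± 0.39 and 7.14 ± 0.50 CPM per kb of merged exons, and with IFNg and ABBV-075 7.70 ± 0.38 and 6.29 ± 0.52. This order depends on the length used. The merged exons of ST6GAL1 span 11142 bases and its longest transcript 4893, against 9745 and 8872 for ST3GAL2, and per length of the longest transcript ST6GAL1 was the higher in both groups. The shares describe RNA, and enzyme amounts or glycans were not measured.

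**Figure D4:**
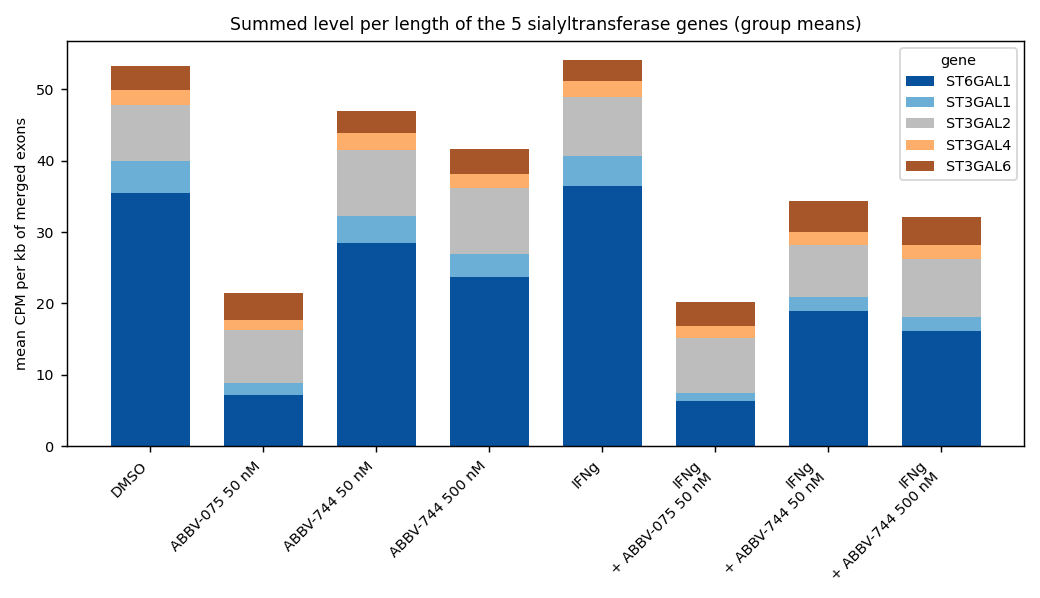
Mean CPM per kb of merged exons (y axis, from 0) of the 5 sialyltransferase genes, stacked, in the 8 groups (x axis, 3 libraries each). The ST6GAL1 segment shrinks from 35.5 CPM per kb in DMSO to 7.14 with ABBV-075, while the ST3GAL2 segment is 7.79 in the former and 7.45 in the latter.

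Of 55 other genes of the pathway, taken from 6 lists of sialic acid and fucose metabolism, 35 were tested in ABBV-075 against DMSO, with 5 higher and 9 lower. These 14 of 35 are a share close to the 39.3% of all genes, so that the genes below are given one by one and not as a change of the pathway. Among 15 other sialyltransferases 3 were tested and all were called. ST6GALNAC6, which acts on gangliosides, fell by 0.85 ± 0.17 (adjusted p = 0.00211). ST3GAL3, an enzyme of N-glycans, rose by 1.49 (adjusted p = 0.0117), from a mean of 2.65 to 7.55 CPM, and held its call in 3 of 6 fits that left out 1 library, and ST6GALNAC4, which acts on O-glycans, fell by 0.58 (adjusted p = 0.0466) and held its call in 1 of them. Of 8 other fucosyltransferases 3 were tested and 0 called. The supply of GDP-fucose had 2 of 5 genes lower and none higher. They were SLC35C1 and GMDS. The Golgi GDP-fucose transporter SLC35C1 had 14.8 ± 2.87 CPM in DMSO and 5.46 ± 1.32 with ABBV-075 (log2 fold change -1.43 ± 0.25, adjusted p = 0.00102). GMDS, an enzyme on the route from GDP-mannose to GDP-fucose, had a log2 fold change of -0.67 ± 0.13 (adjusted p = 0.00204). The supply of CMP-sialic acid had 1 of 5 genes higher, the Golgi CMP-sialic acid transporter SLC35A1, which rose from 14.0 ± 4.25 to 34.1 ± 5.37 CPM (1.27 ± 0.22, adjusted p = 0.000954). Among the enzymes that remove sialic acid or fucose, 5 of 6 were tested, 2 rose and 2 fell. The sialidase NEU4 fell by 1.79 ± 0.21 (adjusted p = 6.56e-05), and the lysosomal fucosidase FUCA1 rose by 0.82 ± 0.13 (adjusted p = 0.00066), as did the lysosomal sialidase NEU1 by 0.47 ± 0.12 (adjusted p = 0.00661). Of 16 enzymes that build the acceptor glycans, 14 were tested, 1 rose and 3 fell. GCNT2, which branches the I antigen, fell by 1.34 ± 0.14 (adjusted p = 2.44e-05), and the galactosyltransferase B4GALT2 fell by 1.26 ± 0.18 (adjusted p = 0.000238). MGAT4A, an N-glycan branching enzyme, rose by 0.62 (adjusted p = 0.0253) but had 0.23 (adjusted p = 0.0887) after the GC correction and held its call in 1 of 6 fits that left out 1 library. With IFNg alone 0 of the 35 pathway genes tested passed edgeR's threshold, and 5 had an unadjusted p under 0.05. ABBV-744 alone changed 7 of the 35 at 50 nM (2 higher, 5 lower) and 5 at 500 nM (3 higher, 2 lower), beside 18.9% and 15.3% of all genes. With IFNg the counts were 22 for ABBV-075, 20 for ABBV-744 50 nM and 16 for ABBV-744 500 nM, beside the shares of all genes given above.

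HNF4A, a transcription factor of liver genes, had a log2 fold change of -0.12 ± 0.11 with ABBV-075 (adjusted p = 0.415). Without IFNg it rose with ABBV-744, by 0.31 ± 0.10 at 50 nM (adjusted p = 0.026) and 0.34 ± 0.09 at 500 nM (adjusted p = 0.0125). In the presence of IFNg, HNF4A was not called higher with ABBV-744 at either dose. The calls of HNF4A with ABBV-744 were not checked with the GC correction or with a library left out.

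The genes whose group means were most like those of FUT6 were found by the root mean square difference of mean log2 CPM, each relative to DMSO, over the 7 treated groups and 11684 genes. They were INHBE (0.34), a hepatokine subunit, NFE2 (0.40), a transcription factor of blood cell lineages, and PVRL4 (0.45), a cell adhesion protein. For ST6GAL1 they were CYP4F3 (0.13), a fatty acid and leukotriene hydroxylase, LAD1 (0.15), an anchoring filament protein, and SLC37A2 (0.17), a sugar phosphate transporter. All 6 were low in both ABBV-075 groups, which follows from their choice by these same means. Their values there were -3.49 to -3.30 relative to DMSO for the genes like FUT6 and -2.51 to -1.98 for those like ST6GAL1. The 7 means share the DMSO libraries, so that the measure describes these data and carries no test.

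**Figure D5:**
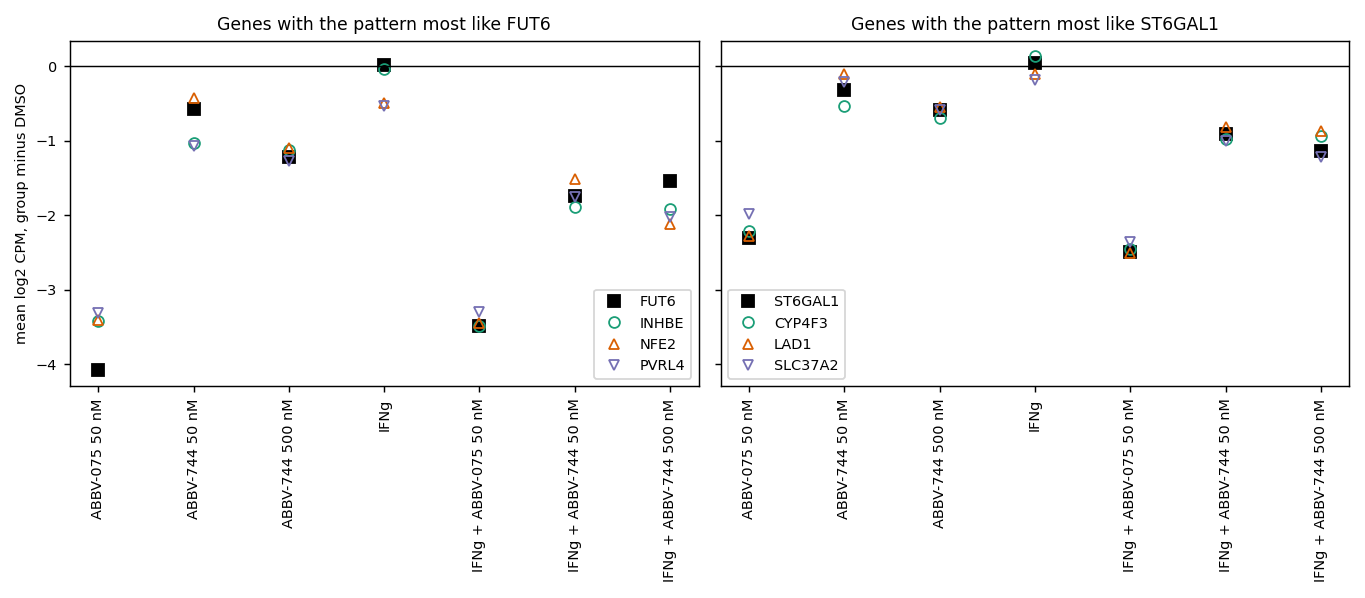
Mean log2 CPM of each treated group minus DMSO (y axis) for FUT6 or ST6GAL1 (squares) and the 3 genes most like it (open symbols) in the 7 treated groups (x axis). The symbols are lowest in both ABBV-075 groups and near 0 in IFNg, where NFE2 and PVRL4 lie at -0.50 and -0.53.

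Neighbouring genes touch the counts of a few members. ST3GAL6 shares 235 bases of exon with DCBLD2 on the opposite strand, which had 25599 reads in all, and 87 reads fell on the strand opposite ST3GAL6. FUT8 shares 824 bases with FUT8-AS1 on the opposite strand, and FUT4 602 bases with PIWIL4 on its own strand, which had 0 reads.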

How the data were processed

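RNA-seq of HepG2 cells was analysed in 24 libraries, 8 groups of 3. Per the labels and methods, the authors trimmed reads with Trimmomatic 0.33 and aligned them with STAR 2.7.1. The deposited values are raw read counts per gene symbol, and the column for the strand of the gene was used. Reads with more than 1 alignment, 56% to 69.4% of all reads, are not in them, and 12% to 16.8% of reads were counted on genes. The counting annotation is not given in the sources used here.

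Each comparison was fitted on the counts with edgeR 4.0.16 in R 4.3.3 (filterByExpr with a minimum count of 10, TMM, quasi-likelihood test) on the libraries of the groups compared, with Benjamini-Hochberg adjustment over all genes tested and a threshold of 0.05. Levels are CPM over all libraries, and levels per kb use merged exons of GENCODE on GRCh38. The GC correction used lowess offsets (span 0.3) per library on the GC content of the longest transcript, known for 98.3% to 98.6% of tested genes. The scripts were tested on simulated data. Exact intervals cover counting error only.

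The members, lists and tests were chosen with earlier results of these data known. The named genes were the members, check genes of the treatments, up to 3 genes a pathway list with the largest change called under ABBV-075 and up to 2 under IFNg, liver transcription factors, the 3 genes most like FUT6 and ST6GAL1, and genes that overlap members. Some of these are not reported here. Alternatives were DESeq2 1.42.0, RLE or library size scaling, other filters, all libraries in 1 fit, both strands, the replicate block, the GC correction, and each library left out. For the pathway genes the last pair of alternatives was chosen after seeing the data. No 2 libraries of a group agreed within sampling noise.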

Additional observations from a re-analysis of the deposited data

Results flagged for a closer look

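Differences between the effect of ABBV-744 with IFNg and its effect without IFNg were picked out where the interaction test passed the threshold. At 50 nM they were -0.67 for ST6GAL1, -0.77 for ST3GAL1, -0.48 for ST3GAL2 and -1.32 for FUT6 on the log2 scale. At 500 nM they were -0.60 for ST6GAL1, -0.61 for ST3GAL1 and -0.71 for FUT11. After the GC correction, ST6GAL1 was the member past the threshold at both doses (-0.49 and -0.42), and at each dose no other member was. Over all genes, that correction left 2336 of 11451 past the threshold at 50 nM and 1915 of 11428 at 500 nM. The part of GC content in the differences as counted was not tested beyond this correction. Groups of 3 libraries were too small for a test of single outlying libraries.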

How the results depend on the processing

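Of 1078 log2 values of members under other settings, 1021 kept their direction and side of the threshold or stayed uncalled, 33 lost the threshold, 20 newly passed it and 4 reversed. With 1 library left out, the numbers were 772, 33, 11 and 0 of 816. The number of members past the threshold for ABBV-744 50 nM against DMSO, 3, was 1 with DESeq2. For the ABBV-744 50 nM by IFNg interaction it went from 4 to 1 with the GC correction, and for 500 nM from 3 to 1 with DESeq2 and 1 with the GC correction. ST3GAL2 reversed with the GC correction, from -0.04 to 0.25 for IFNg with ABBV-744 500 nM against IFNg and from -0.48 to 0.0553 for the 50 nM interaction. The ST6GAL1 share with the longest transcript as length was 75.7% in DMSO, 43.9% in ABBV-075, 70.7% in ABBV-744 50 nM, 67.6% in ABBV-744 500 nM and 76.4% in IFNg, and 41.1%, 64.8% and 60.7% in IFNg with ABBV-075, ABBV-744 50 nM and ABBV-744 500 nM. The cause of these changes was not tested.

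Replicate numbers were shared by the groups, but no comparison had a correlation over 0.1 in every pair (-0.19 to 0.38), so that the numbers were not taken to pair the libraries. With the replicate block 1 member was past the threshold in ABBV-744 50 nM against DMSO, with ST6GAL1 at -0.30 (adjusted p = 0.0575) and FUT6 at -0.57 (adjusted p = 0.0594). In 500 nM against 50 nM of ABBV-744 the block gave 1 in place of 0, ST6GAL1 at -0.28 (adjusted p = 0.00773). The block together with the GC correction also gave 1, while the GC correction alone gave 0. With the GC correction and the block, both ABBV-744 interactions had 1, and ST3GAL2 had 0.25 and 0.0550 in the comparisons named above.

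With 1 library left out, the members past the threshold were 3 to 5 for ABBV-075, 0 to 4 for ABBV-744 50 nM and 2 to 3 for ABBV-744 500 nM. They were 3 to 5 for the 50 nM interaction and 1 to 3 for the 500 nM interaction.

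Over all genes, the count for ABBV-744 50 nM went from 2102 to 1146 with DESeq2, 1196 with the GC correction and 708 without DMSO replicate 2, and that for 500 nM from 1700 to 986 with DESeq2 and 793 without DMSO replicate 2. With the GC correction, the 50 nM interaction went from 5905 to 2336, the 500 nM interaction from 3827 to 1915, and ABBV-744 50 nM with IFNg from 5766 to 3842. The ABBV-075 interaction went from 4 to 27 with the GC correction, 45 with no filter and 200 without ABBV-075 replicate 1. The comparison of doses went from 3 to 320 with the replicate block, and ABBV-075 against ABBV-744 at 50 nM from 4481 to 2651 without ABBV-075 replicate 2. Depth limits FUT6 under ABBV-075, FUT4 and FUT1, with few reads each. With library size only, the median of all genes was -0.10 for ABBV-744 50 nM.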
